A study of Mus musculus with 2 samples.

Results

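Ccl1, Ccl3, Ccl4, Ccl5 and Xcl1 encode chemokines that activated lymphocytes are known to secrete, and these 5 genes are described here out of the 32285 genes measured. They were picked by gene symbol with their levels in these same cells already known, so every level and ratio below is a description and none is a test. CD45+ cells were sorted from the left MC38 colon tumor of male C57BL/6 mice 8 days after microwave ablation (MWA), and droplet single-cell RNA sequencing counted unique molecular identifiers (UMIs), each standing for 1 captured RNA molecule. Mice of both groups carried MC38 tumors on both flanks, and only the right tumor was ablated, at a volume of about 300 mm3. The MWA group had ablation and, by the study's methods, a control antibody, and the MWA plus TIGIT group had ablation and an anti-TIGIT antibody by intraperitoneal injection from 1 day after MWA. The labels give 3 injections at intervals of 3 days, and the study's methods give another number. Each group had 1 library, and the sources used here do not say how many mice it held. There was no untreated library, so the values say nothing of MWA itself, and with 1 library a group no test of the antibody was possible. All intervals are exact 95% intervals (Poisson for levels, Clopper-Pearson for shares of cells, conditional binomial for ratios) and cover counting error only.

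Chemokines are small secreted proteins that draw leukocytes along a gradient by way of receptors on the cell surface. Ccl3 and Ccl5 bind the receptor Ccr1. Ccl1 is the ligand of Ccr8, a receptor known from regulatory T cells in tumors, and Xcl1 is the ligand of Xcr1, the receptor that marks cross-presenting dendritic cells (DCs). T cells make Ccl1, Ccl3, Ccl4 and Xcl1 soon after their antigen receptor is engaged, whereas Ccl5 is a late gene of effector and memory T cells and is stored in granules. Ccl3 and Ccl4 are also made by activated macrophages and neutrophils.

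On the mouse build GRCm38, Ccl1 (ENSMUSG00000020702) lies on the minus strand at chr11:82176657-82305690, Ccl5 (ENSMUSG00000035042) on the minus strand at chr11:83525778-83530518, Ccl3 (ENSMUSG00000000982) on the minus strand at chr11:83647844-83649355 and Ccl4 (ENSMUSG00000018930) on the plus strand at chr11:83662584-83664683. Xcl1 (ENSMUSG00000026573) lies apart from them at chr1:164931644-164935527 on the minus strand, where the annotated gene Gm20743 overlaps it on the opposite strand. RefSeq promoter entries (GRCm38.p6) were matched for 3 of the 5 members, Ccl1, Ccl3 and Xcl1. The 250 bases before their start sites are printed. No entry was found for Ccl4 and Ccl5, so their windows cannot be set beside these. In exhausted-like CD8 T cells the same 3 members were at least 1.5-fold higher after MWA plus TIGIT, but they were not chosen for it. Ccl4 was higher there by less (log2 ratio 0.29, 0.2 to 0.39). Capitals mark GGAAA, the core of the sites of NFAT, a factor that acts downstream of the T cell receptor, read on either strand, so that TTTCC is the same motif on the other strand.
Ccl1, chr11:82179813-82180062, minus strand: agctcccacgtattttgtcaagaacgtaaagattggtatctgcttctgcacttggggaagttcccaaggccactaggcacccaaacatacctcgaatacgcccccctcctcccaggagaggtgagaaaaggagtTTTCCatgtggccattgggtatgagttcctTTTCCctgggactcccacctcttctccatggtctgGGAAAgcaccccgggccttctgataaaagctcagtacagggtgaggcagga
Ccl3, chr11:83649379-83649628, minus strand: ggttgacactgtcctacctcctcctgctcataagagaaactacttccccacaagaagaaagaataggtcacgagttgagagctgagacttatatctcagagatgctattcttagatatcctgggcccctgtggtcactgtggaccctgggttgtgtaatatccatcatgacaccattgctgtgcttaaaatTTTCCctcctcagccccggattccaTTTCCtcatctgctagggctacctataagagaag
Xcl1, chr1:164935523-164935772, minus strand: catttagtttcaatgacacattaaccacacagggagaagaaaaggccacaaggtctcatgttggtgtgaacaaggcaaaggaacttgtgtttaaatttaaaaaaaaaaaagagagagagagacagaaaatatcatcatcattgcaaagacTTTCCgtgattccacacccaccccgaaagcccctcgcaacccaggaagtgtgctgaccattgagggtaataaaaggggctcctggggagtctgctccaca

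The Ccl1 window held 3 copies of GGAAA, at 116, 86 and 51 bases before the start site, and 6.39% of 32851 promoter windows of the same length held at least as many. The Ccl3 window held 2 copies, at 59 and 34 bases (21.4% of windows held at least as many), and the Xcl1 window held 1, at 100 bases (55.6%). The Runx core TGTGGT stood once in the Ccl3 window and once in the Xcl1 window, against 14.0% of all windows. Neither the AP-1 motif TGANTCA (6.75% of windows) nor the NF-kB consensus (3.9%) was found in the 3 windows. All motifs were read on both strands, and a match is a description of these letters only. The Ccl1 window lies within the long annotated span of Ccl1 and over no exon, the Ccl3 window over no annotated gene, and the Xcl1 window over exons of Gm20743 and the first bases of Xcl1.

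The libraries held 10217 barcodes with 66152465 UMIs (MWA) and 10190 barcodes with 78751205 UMIs (MWA plus TIGIT), of which 9202 and 9083 cells were kept, with medians of 5336.5 and 6322 UMIs. Clustering gave 31 clusters, which marker genes placed in 19 classes, with 436 and 450 cells left unnamed. The summed level of Cd3d, Cd3e, Cd3g and Trac was 2370 to 4408 CPM (UMIs of a gene per 1000000 UMIs of the class) in the T cell classes, 145 and 189 CPM in NK-like cells and 8.95 to 37.9 CPM in monocyte-like and tumor-associated macrophage (TAM)-like cells. Macrophage genes (C1qa, C1qb, C1qc, Lyz2 and Apoe) summed to 793 to 1542 CPM in T and NK classes and to 35935 to 58786 CPM in TAM-like classes. The 2 libraries shared 37 barcodes. B-like cells were taken as the low reference for the 5 genes, and whether they make some of them was not tested. After thinning to 1000 UMIs they had a UMI of Ccl1 or Ccl3 in 0 of 79 (MWA) and 0 of 56 (MWA plus TIGIT) cells. The shares were 2.53% and 1.79% for Ccl4 and for Ccl5, and 3.8% and 0% for Xcl1, at median depths before thinning of 1868 and 2419 UMIs. Shares at or below these are read as background, a reading that rests on the choice of reference.

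In all kept cells together, the UMIs were 732 (MWA) and 1216 (MWA plus TIGIT) for Ccl1, 4437 and 4933 for Ccl3, 19397 and 20095 for Ccl4, 70105 and 103283 for Ccl5, and 8252 and 7288 for Xcl1. The kept cells held 56377370 and 67235498 UMIs of all genes. Per UMI of all kept cells, Ccl1 was at 13.0 and 18.1 CPM, Ccl3 at 78.7 and 73.4 CPM and Ccl4 at 344 and 299 CPM. Ccl5 was at 1243 and 1536 CPM and Xcl1 at 146 and 108 CPM. These levels also depend on class sizes, such as 211 and 421 Klrg1 effector-like CD8 cells. CD8 T cell classes held 76.4% and 90.8% of the Ccl1 UMIs, 64.6% and 74.0% of the Ccl5 UMIs and 52.3% and 61.5% of the Xcl1 UMIs, though they were 22.0% and 23.7% of the cells. Gamma-delta T-like and NK-like cells held a further 44.0% and 36.0% of the Xcl1 UMIs. By count of UMIs, Ccl3 and Ccl4 lay mostly outside the lymphocyte classes. TAM-like and monocyte-like cells, 47.2% and 50.2% of the cells, held 70.3% and 68.9% of the Ccl3 UMIs and 69.4% and 64.2% of the Ccl4 UMIs. The median depth of each of these classes was above that of all kept cells in its library. Their share of all UMIs was thus above their share of cells, and no enrichment of Ccl3 or Ccl4 is read from these shares. CD8 classes held 13.2% and 18.9% of the Ccl3 UMIs and 21.1% and 25.4% of the Ccl4 UMIs. Per UMI of the class, Ccl4 was higher in exhausted-like CD8 cells (1023 and 1252 CPM) than in C1q TAM-like cells (393 and 264 CPM). In stem-like CD8 cells it was lower (27.6 and 55.6 CPM). The shares of UMIs depend on how many cells of each class were sorted and on the depth of those cells. The plot of UMI shares shows this division.

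**Figure D1:**
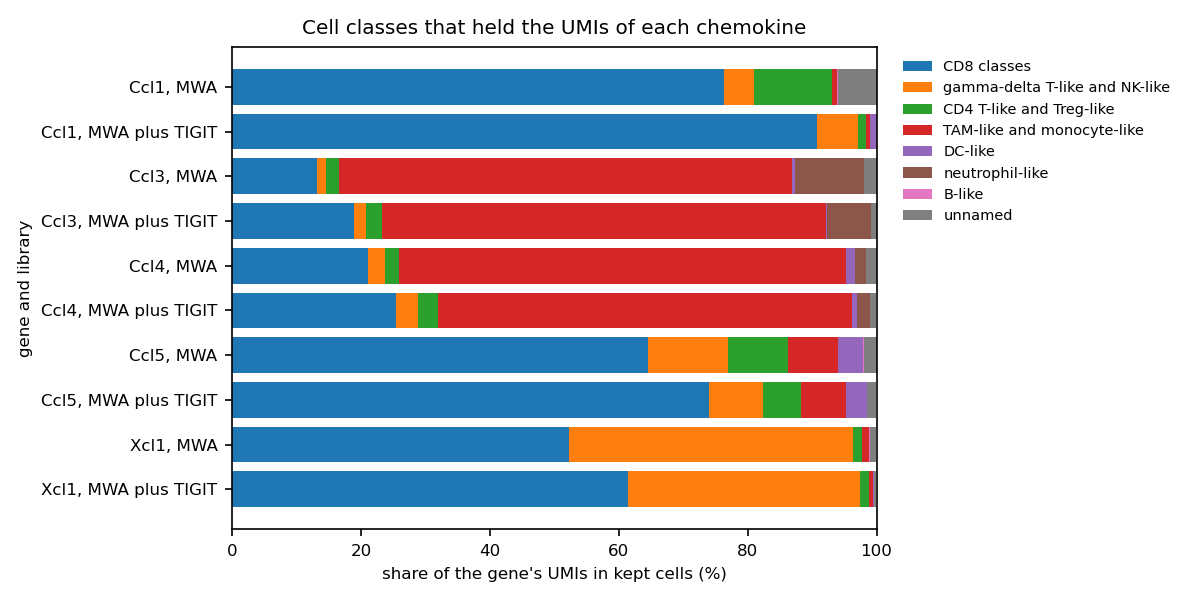
Share of each chemokine's UMIs (horizontal axis, percent of the UMIs in kept cells) held by each group of cell classes, as 1 stacked bar per gene and library. Ccl1, Ccl5 and Xcl1 came mostly from CD8, gamma-delta T and NK classes. TAM-like and monocyte-like cells, 47.2% and 50.2% of the cells, held 64.2% to 70.3% of the Ccl3 and Ccl4 UMIs. Their class medians of depth were above that of all kept cells, so no enrichment is read from this.

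Between the libraries, 71 of the 95 pairs of a member and a class had at least 20 UMIs. Of these, 30 (42.3%) differed by at least 1.5-fold with an interval of the ratio that did not hold 1, 17 higher and 13 lower in the MWA plus TIGIT group. In 22 of the 30 this was still so after the cell with the most UMIs was left out of each library. The number of members past this rule, and the percent of all genes tested past it, were 2 and 4.91 in stem-like CD8 cells, 3 and 7.98 in Ly6c2 effector-like CD8 cells, 0 and 6.26 in Klrg1 effector-like CD8 cells, 0 and 5.66 in interferon-induced-like CD8 cells, 3 and 6.55 in exhausted-like CD8 cells, and 3 and 6.18 in cycling-like CD8 cells. They were 2 and 4.91 in CD4 T-like cells, 3 and 4.74 in regulatory T (Treg)-like cells, 1 and 5.32 in Klra gamma-delta T-like cells, 2 and 5.97 in Il17a gamma-delta T-like cells, and 4 and 5.26 in NK-like cells. Among myeloid classes they were 1 and 3.98 in monocyte-like cells, 2 and 2.8 in C1q TAM-like cells, 1 and 3.28 in Arg1 TAM-like cells, 1 and 5.38 in interferon-induced-like TAM cells, 0 and 2.99 in cycling-like TAM cells, 1 and 8.3 in DC-like cells, and 1 and 11.4 in neutrophil-like cells. In B-like cells no member reached 20 UMIs, and 7.69% of genes were past the rule. Since the members were chosen with these levels known, nothing is read from the comparison with the background. The median log2 ratio of all genes tested was 0.2 in Ly6c2 effector-like, 0.14 in cycling-like, 0.13 in exhausted-like and 0.11 in interferon-induced-like CD8 cells, 0.11 in CD4 T-like and in DC-like cells, and within 0.08 of 0 in the other classes with a member tested, so ratios in the former stand against a shifted center.

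**Figure D2:**
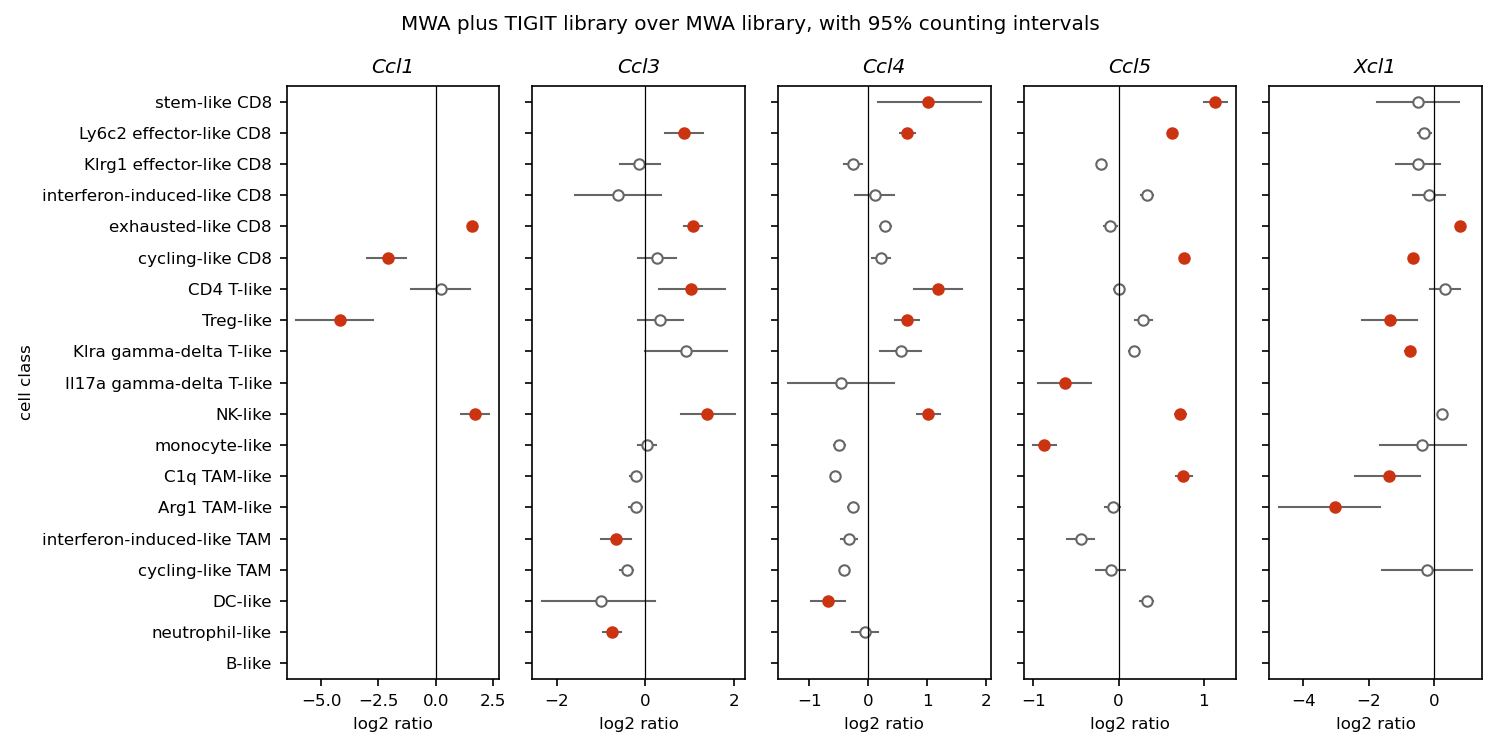
Log2 ratio of each chemokine's level, MWA plus TIGIT over MWA (horizontal axis, a scale of its own per gene), in each cell class with at least 20 UMIs and UMIs in both libraries. Lines are exact 95% intervals of counting error, and filled points differed by at least 1.5-fold with an interval off 0. In exhausted-like CD8 cells Ccl1 stood at 1.59, Ccl3 at 1.07 and Xcl1 at 0.79, while Ccl5 stood at -0.1.

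Ccl1 was found mainly in 1 class. In exhausted-like CD8 cells, named from exhaustion and granzyme genes such as Nrgn, Pdcd1 and Gzmf, it was measured at 263 CPM (240 to 288) after MWA and at 791 CPM (745 to 840) after MWA plus TIGIT. The next class stood at 39.9 CPM (Treg-like, MWA) and 124 CPM (NK-like, MWA plus TIGIT), and in the other T cell classes Ccl1 did not exceed 17.5 CPM. The log2 ratio in exhausted-like cells was 1.59 (1.43 to 1.74). A Ccl1 UMI was found in 71 of 315 cells (22.5%) of the MWA group and in 78 of 212 (36.8%) of the MWA plus TIGIT group, and after thinning to 1000 UMIs in 11.3% (7.97 to 15.3) and 20.9% (15.6 to 27.0), with 4 and 1 shallower cells left out. The intervals of these thinned shares did not overlap, whereas those of the shares after thinning to 2000 UMIs, 15.5% and 23.0%, did. Few cells held most of the molecules: 8 and 6 cells carried 50% of the UMIs, with up to 111 and 157 in 1 cell, and the ratio was 1.74 without the top cell of each library.

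The Ccl1 ratio depended on cell depth. Among exhausted-like cells with up to 5000 UMIs, 134 and 64 cells, the level was 508 CPM (MWA) and 561 CPM (MWA plus TIGIT), a log2 ratio of 0.14. Among the 181 and 148 deeper cells it was 174 and 837 CPM. Cells with a UMI of the T cell receptor segments Trav16, Trav16n or Trav16d-dv11, which mark sets of CD8 T cells that differed in size between the libraries, were 19.4% and 6.13% of the exhausted-like cells. Without them the Ccl1 level was 320 and 773 CPM, a log2 ratio of 1.27. In other classes much of the Ccl1 lay in single cells: in NK-like cells 68 of 75 UMIs after MWA plus TIGIT were in 1 cell, as were 52 of 76 in Treg-like and 42 of 67 in cycling-like CD8 cells after MWA. Without the top cell of each library the log2 ratio in NK-like cells went from 1.69 to -0.13. In Treg-like cells it went from -4.17 to -3.51 (-6.63 to -1.5) and in cycling-like CD8 cells from -2.1 to -1.22 (-2.39 to -0.14), both still past the rule.

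Xcl1 was highest in NK-like cells, at 2946 CPM (2832 to 3063) after MWA and 3478 CPM (3331 to 3630) after MWA plus TIGIT, with a UMI in 86.8% and 81.7% of cells. In these cells the top cell of each library held 171 of 2525 and 405 of 2100 UMIs. The log2 ratio of 0.24 (0.16 to 0.32) became 0.05 (-0.04 to 0.14) without the top cells. In the MWA group Klra gamma-delta T-like cells (1325 CPM, 1247 to 1406) and exhausted-like CD8 cells (1317 CPM, 1265 to 1370) came next and did not differ beyond counting error. In the MWA plus TIGIT group these classes moved apart, to 800 CPM (733 to 872) and 2271 CPM (2192 to 2352), log2 ratios of -0.73 (-0.88 to -0.58) and 0.79 (0.71 to 0.86). The share of exhausted-like cells with an Xcl1 UMI was 48.3% and 65.1%, but after thinning to 1000 UMIs it was 34.4% and 40.8%, with overlapping intervals. After thinning to 2000 UMIs it was 41.4% (35.9 to 47.2) and 56.0% (49.0 to 62.8), which did not overlap. The ratio in exhausted-like cells was 0.19 when cells were gated on marker UMIs in place of clusters. Cycling-like CD8 cells were at 344 and 220 CPM (log2 ratio -0.64, -0.77 to -0.52), a ratio that was -0.2 with the gates, and Ly6c2 effector-like cells at 191 and 156 CPM.

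Other lymphocyte classes held little Xcl1. Treg-like cells were at 25.2 and 9.99 CPM (log2 ratio -1.34), with 19 of 48 and 14 of 18 UMIs in 1 cell, and the ratio was -2.77 (-4.74 to -1.27) without the top cells. The thinned shares of Treg-like cells with Xcl1 were 1.81% and 0.347%. For Il17a gamma-delta T-like cells the counts were 26 UMIs after MWA, 21 of them in 1 cell, and 0 after MWA plus TIGIT. In C1q TAM-like cells Xcl1 was at 2.4 and 0.925 CPM and in Arg1 TAM-like cells at 2.93 and 0.361 CPM, with log2 ratios of -1.38 and -3.02. After thinning, 0.144% and 0.0736% of the C1q and 0.523% and 0.211% of the Arg1 TAM-like cells had an Xcl1 UMI. In the MWA library the shares of these TAM-like and of Treg-like cells lie below that of B-like cells (3.8%, 0.79 to 10.7), at the level of background. In the MWA plus TIGIT library they lie within the interval of the B-like share of 0%, which goes up to 6.38%, so expression and background cannot be told apart there. T cell receptor genes were lower in the same direction, with a sum of 17.9 and 9.71 CPM in C1q TAM-like and 16.8 and 8.95 CPM in Arg1 TAM-like cells, and their part in the ratios was not tested.

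Ccl5 was detected in every T and NK class of both libraries. Klrg1 effector-like CD8 cells, in which all 211 and all 421 cells had a UMI, were at 27242 CPM (26785 to 27704) after MWA and 23612 CPM (23340 to 23887) after MWA plus TIGIT. In the MWA group Ly6c2 effector-like (6493 CPM), Klra gamma-delta T-like (6405 CPM) and interferon-induced-like CD8 cells (6399 CPM) followed with overlapping intervals. In the MWA plus TIGIT group the same classes were at 10023, 7262 and 8061 CPM, with intervals that no longer overlapped. Exhausted-like CD8 cells (1860 and 1740 CPM) and CD4 T-like cells (1600 and 1614 CPM) differed little between the libraries, with log2 ratios of -0.1 and 0.01. Treg-like cells were at 816 and 998 CPM.

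Ccl5 differed past the rule upward in 4 lymphocyte classes of the MWA plus TIGIT library. Stem-like CD8 cells, with memory genes such as Tcf7 and Lef1, were at 998 CPM (920 to 1080) and 2187 CPM (2086 to 2293), a log2 ratio of 1.13 (1.0 to 1.27). After thinning, 19.7% and 26.9% of stem-like cells had a Ccl5 UMI, with overlapping intervals, and the ratio was 0.4 with CD8 cells clustered at a finer resolution and 0.16 with the libraries merged without integration. Cycling-like CD8 cells were at 2177 and 3719 CPM (0.77, 0.73 to 0.81), NK-like cells at 3760 and 6209 CPM (0.72, 0.66 to 0.79) and Ly6c2 effector-like CD8 cells at 6493 and 10023 CPM (0.63, 0.6 to 0.66). In Ly6c2 effector-like cells the ratio was 0.43 with edgeR TMM scaling. Cells with a Trav16 UMI were 9.98% and 29.0% of the cycling-like CD8 cells and 5.79% and 28.1% of the Ly6c2 effector-like cells. In cycling-like cells Ccl5 was at 1274 and 7755 CPM in cells with a Trav16 UMI and at 2297 and 2450 CPM in the rest, so that the ratio was 0.09 without them. In Ly6c2 effector-like cells the ratio was 0.4 without them.

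Among myeloid cells, the Ccl5 level was highest in 1 DC-like cluster led by Ccr7, Fscn1 and Il12b, genes of mature DCs, with 38 and 33 cells at 11285 and 13032 CPM. This cluster held 2673 and 3218 Ccl5 UMIs, fewer than the 5462 and 7292 of the far more numerous TAM-like and monocyte-like cells. The other DC-like clusters were at 87.3 to 227 CPM, and all DC-like cells together at 2716 and 3408 CPM (log2 ratio 0.33). This ratio turned to -1.69 under a doublet call on 136 neighbors in place of 30, added after the data were seen. That call took out many DC-like cells. Monocyte-like cells were at 234 and 128 CPM (-0.87, -1.0 to -0.73), of which 1 cell of the MWA group held 242 of 985 UMIs. Without the top cell the ratio was -0.58, and the 2 monocyte-like clusters went opposite ways, at 260 and 126 CPM in the larger and 26.8 and 147 CPM in the smaller. C1q TAM-like cells were at 109 and 186 CPM (0.76, 0.67 to 0.86), yet 25 and 13 cells held 50% of the UMIs and the thinned shares of 6.28% and 7.58% overlapped in their intervals with each other and with B-like cells. The ratio there was -0.18 with cells over 5000 UMIs left out. Il17a gamma-delta T-like cells were at 540 and 348 CPM (-0.63), with 114 of 218 and 82 of 143 UMIs in 1 cell.

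**Figure D3:**
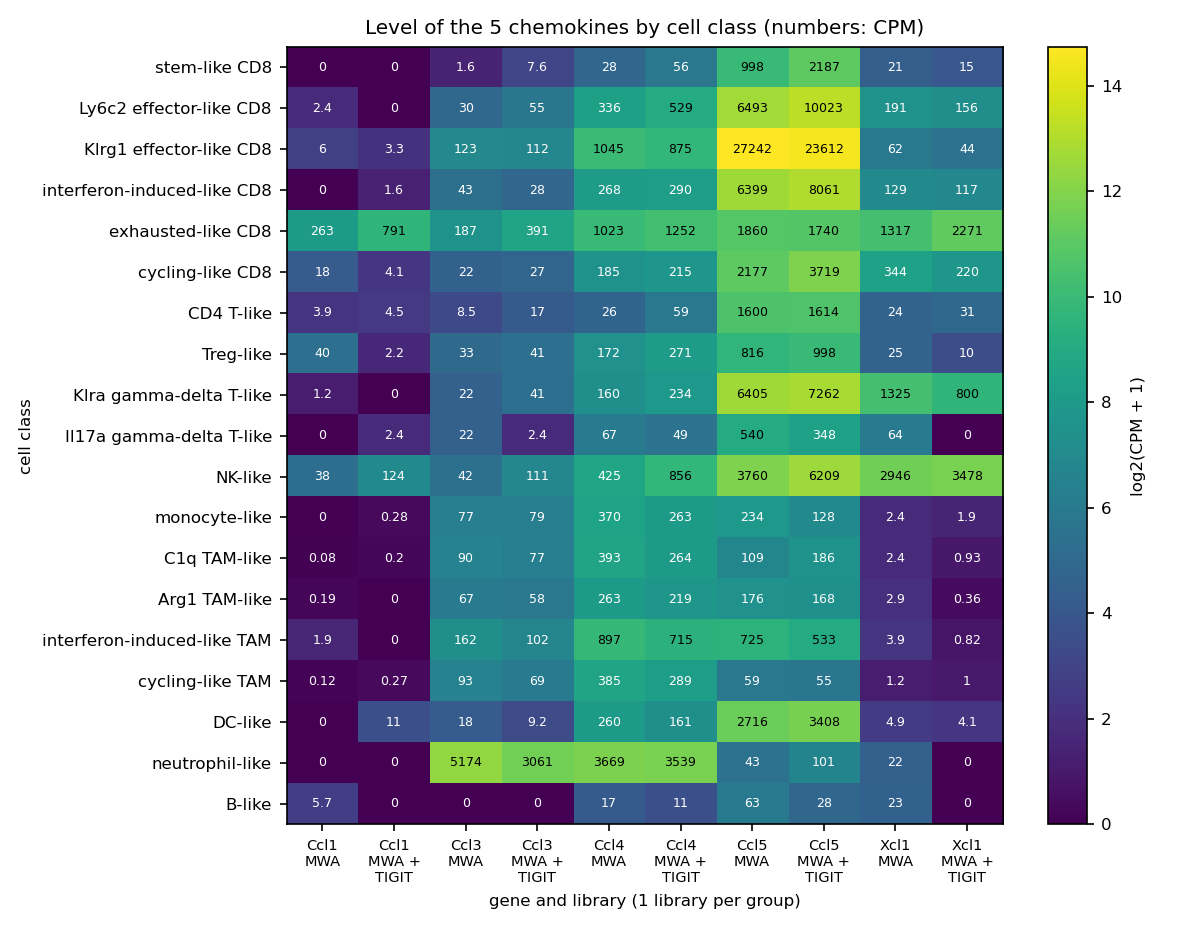
Level of the 5 chemokines in each cell class (rows) and library (columns), as numbers in CPM on a color scale of log2(CPM + 1), 1 library per group. Ccl5 peaked in Klrg1 effector-like CD8 cells (27242 and 23612 CPM), Xcl1 in NK-like cells, Ccl1 in exhausted-like CD8 cells, and Ccl3 and Ccl4 in neutrophil-like cells.

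Ccl3 per UMI was highest in neutrophil-like cells, a class of 91 and 83 small cells with medians of 906 and 1082 UMIs. Its level there was 5174 CPM (4720 to 5659) after MWA and 3061 CPM (2741 to 3408) after MWA plus TIGIT, with a log2 ratio of -0.76 (-0.96 to -0.55). A Ccl3 UMI was found in 51.6% and 47.0% of these cells, and after thinning, which left out 54 and 37 shallower cells, in 56.8% (39.5 to 72.9) and 45.7% (30.9 to 61.0), with overlapping intervals. Among CD8 cells, exhausted-like cells were at 187 CPM (167 to 207) and 391 CPM (358 to 425), a log2 ratio of 1.07 (0.87 to 1.27). After thinning, 9.65% and 9.48% of exhausted-like cells had a Ccl3 UMI, and 9 and 5 cells held 50% of the UMIs, so the higher level lay in few cells of high content.

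Ccl3 was also higher in NK-like cells (42 and 111 CPM, log2 ratio 1.4, 0.8 to 2.03), with a UMI in 10.2% and 20.9% of cells and, after thinning, in 4.79% (2.09 to 9.22) and 11.4% (6.21 to 18.7), and in Ly6c2 effector-like CD8 cells (29.8 and 54.8 CPM, 0.88). In the latter it was at 28.4 and 30.8 CPM (0.12) without cells with a Trav16 UMI. Klrg1 effector-like cells were at 123 and 112 CPM. In CD4 T-like cells 34 of 46 UMIs found after MWA plus TIGIT lay in 1 cell, and the ratio of 1.03 became -0.38 without the top cell of each library. Interferon-induced-like TAM cells were at 162 and 102 CPM (-0.67, -1.01 to -0.32). The other TAM-like classes and monocyte-like cells were at 57.6 to 92.7 CPM, with log2 ratios between -0.42 and 0.03.

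Ccl4, a chemokine encoded beside Ccl3, had the same leading class, at 3669 CPM (3289 to 4081) and 3539 CPM (3194 to 3911) in neutrophil-like cells. Klrg1 effector-like (1045 and 875 CPM) and exhausted-like CD8 cells (1023 and 1252 CPM) followed, and the intervals of these classes overlapped in the MWA group. NK-like cells were at 425 CPM (382 to 471) and 856 CPM (784 to 933), a log2 ratio of 1.01 (0.82 to 1.21), and 1.07 without the top cells. After thinning, 24.0% (17.7 to 31.2) and 32.5% (24.0 to 41.9) of NK-like cells had a Ccl4 UMI. Ly6c2 effector-like CD8 cells were at 336 and 529 CPM (0.66, 0.53 to 0.79). In them 1 cell held 185 of the 1257 UMIs after MWA plus TIGIT, and the ratio was 0.51 without the top cells, 0.46 with TMM scaling and 0.03 without cells with a Trav16 UMI.

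With cells of all depths, the 4 TAM-like classes and monocyte-like cells had less Ccl4 after MWA plus TIGIT, each by less than 1.5-fold. The levels were 393 and 264 CPM in C1q TAM-like cells (log2 ratio -0.57, -0.63 to -0.51), 370 and 263 CPM in monocyte-like cells (-0.49), 385 and 289 CPM in cycling-like TAM cells (-0.41), 897 and 715 CPM in interferon-induced-like TAM cells (-0.33) and 263 and 219 CPM in Arg1 TAM-like cells (-0.26). Among cells with up to 5000 UMIs the direction of the point values was turned in 3 of these classes, 2 of them with under 50 cells in each library. Arg1 TAM-like cells were there at 366 and 731 CPM (1.0, 0.76 to 1.24), from 210 and 135 cells. Cycling-like TAM cells were at 317 and 362 CPM, from 48 and 50 UMIs in 47 and 41 cells. Interferon-induced-like TAM cells were at 1504 and 1605 CPM, from 176 and 74 UMIs in 33 and 12 cells. For these last 2 classes no interval was computed, and a turn cannot be told apart from counting error. Of the 2 Arg1 TAM-like clusters, 1 was at 203 and 137 CPM (-0.56) and the other at 344 and 334 CPM (-0.04, -0.14 to 0.05). In C1q TAM-like cells the thinned shares were 19.1% (17.1 to 21.3) and 13.8% (12.0 to 15.7), which did not overlap. DC-like cells were at 260 and 161 CPM (-0.69, -0.98 to -0.4). This lay in the DC-like cluster led by Klrd1, Ifitm1 and Ly6d, at 559 and 152 CPM, while the cluster led by Xcr1 and Clec9a was at 201 and 261 CPM.

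The Ccl4 ratios of 3 further T cell classes moved with few cells or with how cells were classed. In Treg-like cells (172 and 271 CPM, log2 ratio 0.65) 1 cell held 160 of the 488 UMIs after MWA plus TIGIT, and the ratio was 0.34 without the top cells and -0.8 with the gates on marker UMIs. In CD4 T-like cells (26.1 and 59.2 CPM, 1.18) 1 cell held 115 of 157 UMIs, and the ratio was -0.51 without the top cells. In stem-like CD8 cells (27.6 and 55.6 CPM, 1.01) it was 0.37 without them and -0.79 with the gates. The thinned shares of Ccl4 in CD4 T-like cells (2.37% and 1.61%) did not exceed those in B-like cells.

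**Figure D4:**
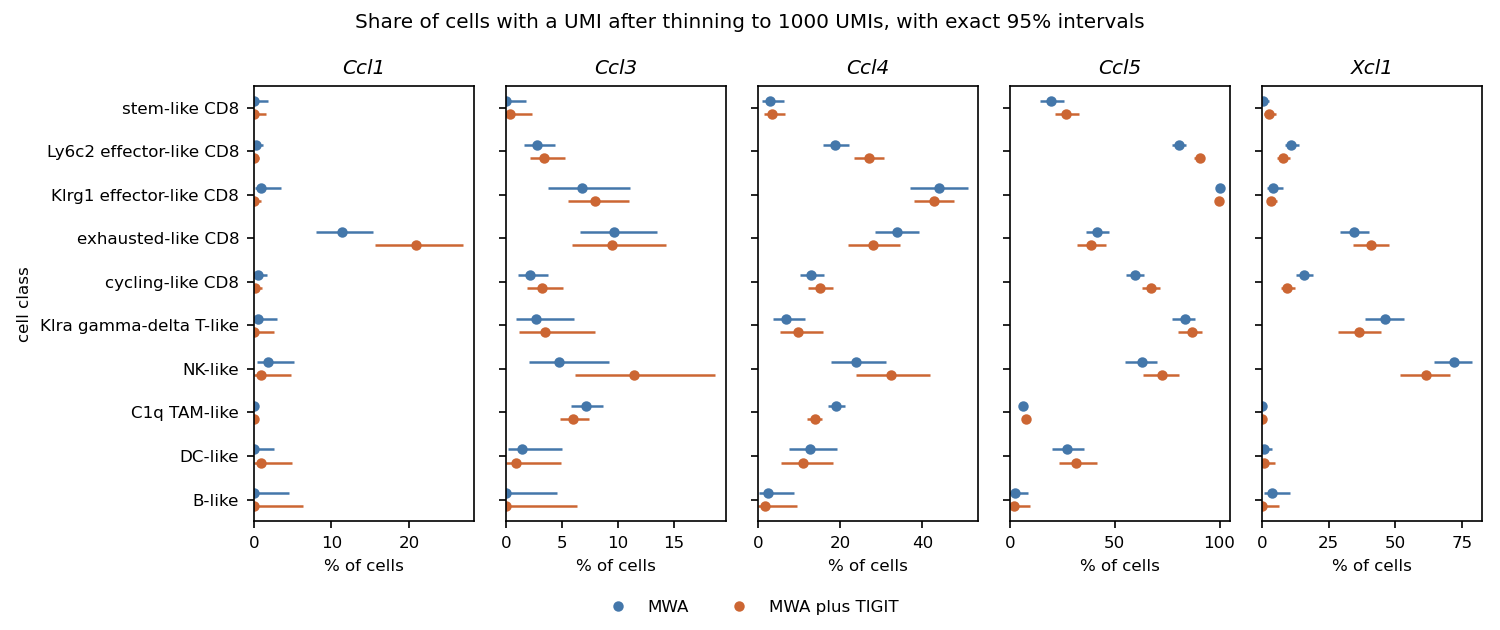
Percent of cells with a UMI of each chemokine (horizontal axis, a scale of its own per gene) after thinning every cell to 1000 UMIs, in 10 cell classes and both libraries, with exact Clopper-Pearson 95% intervals. Ccl1 in exhausted-like CD8 cells was found in 11.3% and 20.9% of cells, and Ccl3 in 9.65% and 9.48%.

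Within exhausted-like CD8 cells thinned to 1000 UMIs, some members were found in the same cells more often than in the rest. Of cells with Ccl1, 57.1% (MWA, 20 of 35) and 59.1% (MWA plus TIGIT, 26 of 44) also had Xcl1, against 31.5% and 35.9% of the cells without Ccl1. Of cells with Ccl3, 73.3% and 70.0% had Ccl4, against 29.5% and 23.6% of the rest. Ccl5 was found in 14.3% and 31.8% of cells with Ccl1, below the 45.3% and 40.7% of the rest, with intervals that overlapped in the MWA plus TIGIT group. Xcl1 was found in 26.7% (12.3 to 45.9) of cells with Ccl3 in the MWA group and in 85.0% (62.1 to 96.8) in the MWA plus TIGIT group, from 8 of 30 and 17 of 20 cells. Ccl1 was found in 4 of 30 and 9 of 20 cells with Ccl3, against 31 of 281 and 35 of 191 of the rest. Xcl1 was found in 25.7% and 57.6% of cells with Ccl4, against 38.8% and 34.2% of the rest. In NK-like cells, Ccl4 was found in 38.1% and 43.4% of cells with Ccl5 and in 0% and 3.23% of the rest. Xcl1 was less frequent in NK-like cells with Ccl5 (61.0% and 54.2%) than in the rest (90.3% and 80.6%), with overlapping intervals in the MWA plus TIGIT group. Cells of 1 library share their source, so these counts are a description.

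Of the receptors described here, Ccr1 was highest in neutrophil-like cells, as was Ccl3. Xcr1 and Ccr8 were highest in other classes than Xcl1 and Ccl1. Ccr1 was at 1007 and 837 CPM in neutrophil-like cells and at 139 to 216 CPM in monocyte-like and TAM-like cells. Xcr1 was at 262 and 211 CPM in DC-like cells, where 38.2% and 25.5% of cells had a UMI, and 20 UMIs were not reached in any other class. The DC-like cluster led by Xcr1 and Clec9a made up 58 of 144 and 28 of 110 DC-like cells. Its part in these Xcr1 values was not tested. Ccr8, the receptor of Ccl1, was highest in Treg-like cells, at 36.2 and 23.9 CPM (log2 ratio -0.6, -1.19 to -0.03). Ccrl2, which binds chemoattractants without signaling, was at 2370 and 1636 CPM in neutrophil-like cells (-0.53), and in cycling-like CD8 cells at 11.7 and 7.13 CPM (-0.72). Ccr3 reached 20 UMIs in Treg-like cells alone, at 9.98 and 7.77 CPM, and Ackr2, a scavenging receptor, in no class.

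**Figure D5:**
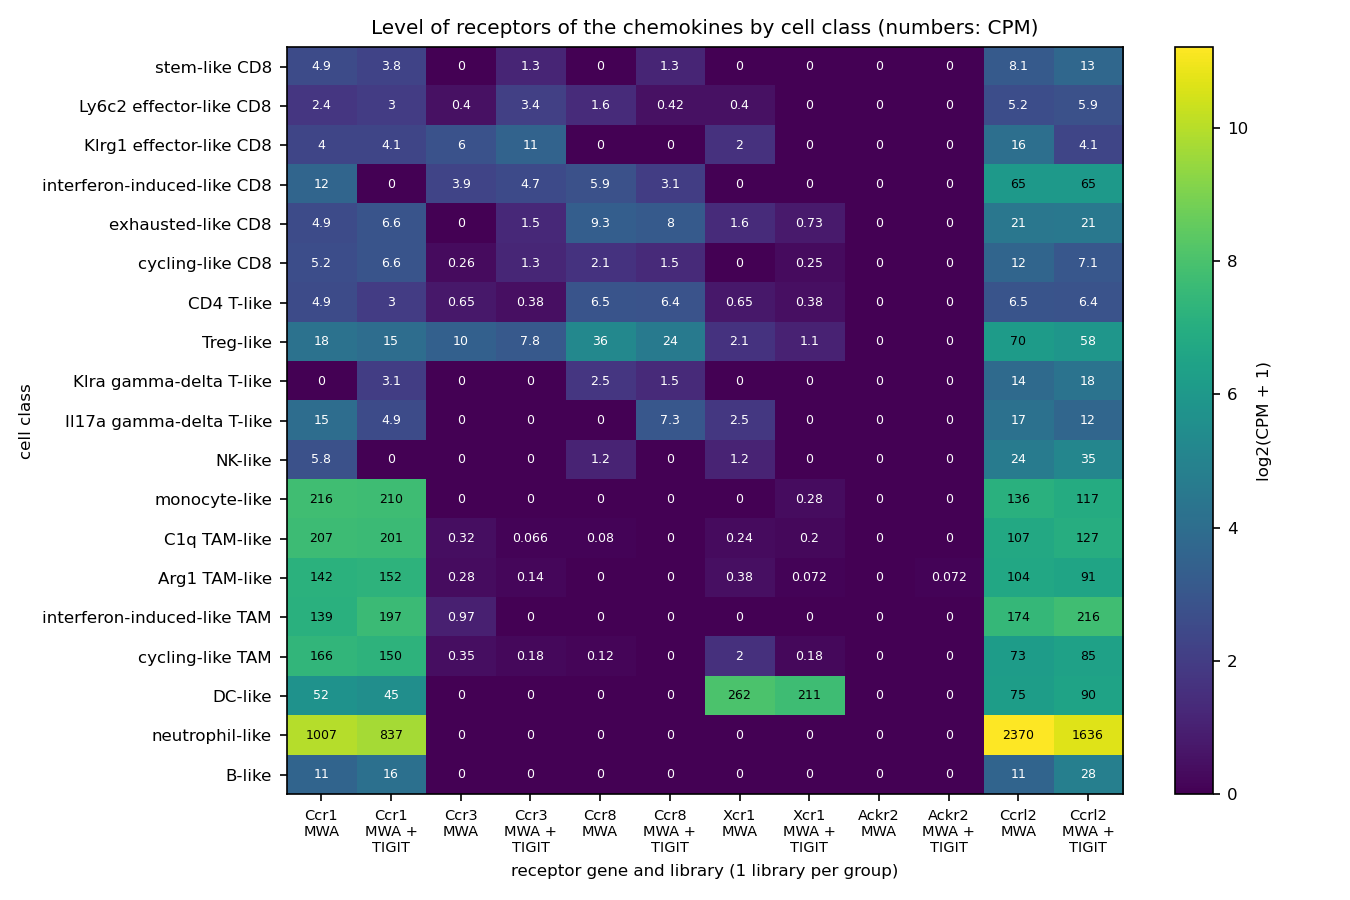
Level of the receptor genes described in the text in each cell class (rows) and library (columns), as numbers in CPM on a color scale of log2(CPM + 1). Xcr1 was highest in DC-like cells (262 and 211 CPM), Ccr1 and Ccrl2 in neutrophil-like cells, and Ccr8 in Treg-like cells.

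The other genes of the same setting were read from lists, each gene by the same rule of 1.5-fold. The lists were chosen with earlier results known, so their counts are a description. Of all genes tested in exhausted-like CD8 cells, 6.55% were past the rule. In exhausted-like CD8 cells, 4 of 12 secreted factors tested were higher in the MWA plus TIGIT group and 1 was lower (median log2 ratio 0.43, against 0.13 over all genes). The cytokine Tnf was at 32.2 and 68.7 CPM (log2 ratio 1.09), Lta at 27.3 and 52.6 CPM (0.95), and Tnfsf14, a ligand of the TNF family, at 7.09 and 17.5 CPM (1.31). Il2, the T cell growth factor, was at 21.3 and 5.11 CPM (-2.06). Of 25 activation genes downstream of the T cell receptor, Nfkb1 alone was past the rule (98.7 and 157 CPM, 0.67). Of 10 granule proteins, Gzma was higher (1.42) and Gzmf (-1.34) and Gzmk (-0.77) lower, and of 10 transcription factors Tbx21 (0.6) and Zeb2 (0.81) were higher. Of 2 other ligands tested in this class, 0 were past the rule.

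In NK-like cells, where Ccl3, Ccl4 and Ccl5 were higher, 2 of 9 granule proteins were higher, the pore-forming protein Prf1 (log2 ratio 0.7) and Gzmf (2.01), and Gzmc was lower (-0.99). Of 21 activation genes, Nfkbid (1.58) and Rgs16 (1.15) were higher, and of 5 secreted factors Fasl, the death ligand, was higher (0.71). In Ly6c2 effector-like CD8 cells 4 of 8 granule proteins were higher, Gzmb (1.08), Gzmk (1.07), Prf1 (0.76) and Gzma (0.68), against a median of 0.2 over all genes. Of 24 activation genes there, 4 were higher, with Egr3 at 1.8 and Rgs16 at 0.9, and Myc was lower (-0.67). In cycling-like CD8 cells 4 of 10 granule proteins were higher, Prf1 (1.72), Gzmk (1.04), Gzmb (0.86) and Gzma (0.62), while 3 of 25 activation genes were lower, Tnfrsf9 (-0.72), Nr4a3 (-0.7) and Irf4 (-0.62). In neutrophil-like cells Tnf (-1.65), Nr4a1 (-1.3) and Fosl2 (-0.76) were lower with Ccl3, and Rgs1 was higher (0.65). In C1q TAM-like cells, among 5 other ligands tested, Ccl8 was higher (252 and 421 CPM, 0.74) and Ccl24 lower (8.82 and 5.02 CPM, -0.81). Of all genes tested, 5.26% were past the rule in NK-like, 7.98% in Ly6c2 effector-like CD8 and 6.18% in cycling-like CD8 cells. The share was 11.4% in neutrophil-like and 2.8% in C1q TAM-like cells.

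Over the 19 classes, the gene whose level followed Ccl1 most closely was Nrgn, with a Pearson r of log2(CPM + 1) of 0.778 in the MWA and 0.896 in the MWA plus TIGIT library, followed by Csf2 (0.775 and 0.882), Gzmf, Gzmd and Nfat5. Nrgn, Gzmf and Gzmd were on the marker list of the exhausted-like class. Of the genes named next, Klrk1 and Klrc1 were on the list of effector-like CD8 cells, and Klrk1, Klre1 and Prf1 on that of NK-like cells. Prf1 was also on that of the exhausted-like class. The classes were named with these markers, so likeness to them is in part built in. Ccl3 and Ccl4 were each the gene most like the other (0.93 and 0.946), and Lasp1 came next for both. Ccl5 was most like Itga1 (0.86 and 0.875), Tbx21, Klrk1, Epsti1 and Cst7, and Xcl1 most like Cd160 (0.901 and 0.921), Klrc2, Klre1, Klrc1 and Prf1. These are the highest of 4614 genes, and the points of a library share its depth. Among the members, Ccl5 and Xcl1 (0.625 and 0.765) and Ccl1 and Xcl1 (0.622 and 0.645) were more alike than Ccl3 and Ccl5 (-0.161 and 0.054).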

How the data were processed

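The 2 libraries of CD45+ cells were analysed, 1 per group, and groups were taken from the labels. The authors deposited UMI counts per gene and barcode, made with Cell Ranger on mm10, with no normalization. The file header names version 4.0.0 and the submitters' processing notes 6.1.1. Barcodes were dropped under 200 genes or above 10% mitochondrial UMIs (179 and 276 were over the mitochondrial limit, 2 and 12 under 200 genes). The study's limit of 5000 UMIs per cell was tried as an alternative. Doublets (835 and 831) were called by a script of the DoubletFinder principle (artificial doublets counted around every barcode), and DoubletFinder itself was not run. The number of 30 neighbors was set after 136 neighbors had called most B-like and many DC-like cells.

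Integration and clustering used Seurat 5.3.0 under R 4.3.3 (2000 variable features without chemokines and T cell receptor segments, 40 components, resolutions of 0.1 for all cells, 1.0 for T and NK cells, and 0.5 for CD8 and myeloid cells). Clusters were named from marker lists by rules completed after the clusters were seen. The members, gene lists and markers were chosen with earlier results of these data known. The text names all members in each class, their receptors (1 is not reported here), the 5 genes most like each member, and up to 4 genes of a list past the rule of 1.5-fold with the largest change. UMIs were summed per class and library and divided by the class total (CPM). SciPy 1.17.1 gave the exact intervals, and a 0 count allows up to 3 UMIs. Ratios and the doublet script were tested on simulated data. edgeR 4.0.16 gave TMM factors only. No count test could be run with 1 library a group.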

Additional observations from a re-analysis of the deposited data

Results flagged for a closer look

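Each of the members Ccl3, Ccl4, Ccl5 and Xcl1 was higher in the MWA plus TIGIT library in some classes and lower in others past the rule of 1.5-fold, also without the top cells, and the classes with the largest opposite ratios, among those with at least 200 UMIs, are given here. The log2 ratio of Ccl3 was 1.07 in exhausted-like CD8 cells and -0.76 in neutrophil-like cells. That of Ccl4 was 1.01 in NK-like cells and -0.69 in DC-like cells. That of Ccl5 was 1.13 in stem-like CD8 cells and -0.63 in Il17a gamma-delta T-like cells, and that of Xcl1 was 0.79 in exhausted-like CD8 cells and -0.73 in Klra gamma-delta T-like cells. Some of these ratios fell below 1.5-fold under other settings. For Ccl5 in stem-like CD8 cells this was so at the CD8 resolution of 1.0 and without integration. For Xcl1 it was so in exhausted-like cells with the gates and in Klra gamma-delta T-like cells with doublets kept. In Il17a gamma-delta T-like cells 1 cell of each library held most of the Ccl5 UMIs. With 1 library a group the difference between the classes was not tested.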

How the results depend on the processing

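No paired analysis was possible because each group had 1 library. The causes of the moves were not tested. Of the 29 ratios past the rule with UMIs in both libraries, all 29 kept their direction with a mitochondrial limit of 5%, with called doublets kept, with TMM factors, at a CD8 resolution of 1.0 and without Trav16 cells, and 29, 24, 27, 27 and 23 stayed past the rule. With cells over 5000 UMIs left out 23 could be computed, and 21 kept their direction and 17 stayed past the rule. With chemokines and T cell receptor V segments both kept among the variable features these numbers were 29, 26 and 20, and without integration 26, 23 and 19. With the gates 19 could be computed, of which 15 kept their direction and 11 stayed past the rule. The top cell, shared barcodes and a doublet call on 136 neighbors were added after the data were seen. They left 22, 28 and 28 past the rule, with 26, 29 and 29 in the same direction. Ratios that came past the rule under an alternative numbered 7 with cells over 5000 UMIs left out, 7 with doublets kept and 7 with the gates. They numbered 4 with chemokines and V segments kept, 3 without integration, 2 at the CD8 resolution of 1.0 and 2 under the doublet call on 136 neighbors. There was 1 each with the mitochondrial limit of 5%, TMM factors and without Trav16 cells, and 0 without the top cells or shared barcodes.

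With cells over 5000 UMIs left out, the log2 ratio of Ccl1 in exhausted-like CD8 cells was 0.14 and that of Xcl1 0.87; Ccl4 in NK-like cells was 1.22; Ccl5 was 0.56 in Ly6c2 effector-like, 0.71 in cycling-like CD8, 0.55 in NK-like, -0.0 in monocyte-like and -0.18 in C1q TAM-like cells, and Xcl1 in cycling-like CD8 cells -1.51. Without Trav16 cells, exhausted-like cells gave 1.27 for Ccl1, 1.3 for Ccl3 and 0.59 for Xcl1, Ly6c2 effector-like cells 0.03 for Ccl4 and 0.4 for Ccl5, and cycling-like CD8 cells 0.09 for Ccl5. With gates, Ccl1 in exhausted-like cells was 1.99 and Xcl1 0.19, Ccl3 in CD4 T-like cells -0.45, Ccl4 -0.79 in stem-like, 0.81 in Ly6c2 effector-like and -0.8 in Treg-like cells, Ccl5 0.71 in Ly6c2 effector-like, 1.04 in cycling-like CD8, 0.13 in monocyte-like and 0.07 in C1q TAM-like cells, and Xcl1 in cycling-like CD8 cells -0.2. Without the top cells, Ccl1 in NK-like cells was -0.13, Ccl3 and Ccl4 in CD4 T-like cells -0.38 and -0.51, Ccl4 0.51 in Ly6c2 effector-like and 0.34 in Treg-like cells, and Ccl5 in monocyte-like cells -0.58.

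With chemokines and V segments kept among the variable features, Ccl3 was 0.8 in exhausted-like and -0.37 in CD4 T-like cells, Ccl4 -0.16 in stem-like, 0.41 in Ly6c2 effector-like and -0.24 in CD4 T-like cells, and Ccl5 0.49 in stem-like, 0.38 in Ly6c2 effector-like, -1.0 in monocyte-like and 0.31 in C1q TAM-like cells. At a CD8 resolution of 1.0, Ccl3 in exhausted-like cells was 0.81, Ccl4 and Ccl5 in Ly6c2 effector-like cells 0.36 and 0.67, and Ccl5 in stem-like cells 0.4. Without integration, Ccl3 and Ccl4 in CD4 T-like cells were -1.06 and -0.99, Ccl4 and Ccl5 in stem-like cells -0.04 and 0.16, Ccl5 0.82 in cycling-like CD8, -0.18 in monocyte-like and 0.35 in C1q TAM-like cells, and Xcl1 in cycling-like CD8 cells -0.47. TMM factors gave 0.46 for Ccl4 and 0.43 for Ccl5 in Ly6c2 effector-like cells, 0.64 for Ccl5 and -0.78 for Xcl1 in cycling-like CD8 cells, 0.6 for Ccl5 in NK-like cells and 0.64 for Xcl1 in exhausted-like cells. With doublets kept, Ccl4 in NK-like cells was 0.78, Ccl5 -0.25 in monocyte-like and 0.52 in C1q TAM-like cells, and Xcl1 in Klra gamma-delta T-like cells -0.52. Under the doublet call on 136 neighbors, Ccl5 in DC-like cells, not past the rule as reported, was -1.69. With a pseudocount of 10 CPM, Nrgn, Ccl4, Ccl3 and Cd160 stayed the genes most like Ccl1, Ccl3, Ccl4 and Xcl1. Klrd1, which was on the marker list of effector-like CD8 cells, took first place for Ccl5. With no filter on low counts, genes past the rule numbered 247 in place of 139 in neutrophil-like and 274 in place of 146 in B-like cells.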
